A study of Oryza sativa Indica Group with 2 samples.

Results

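MYB transcription factors were described in 2 rice RNA-seq libraries, 1 from the wild type (WT) and 1 from rice overexpressing OsGRF7 (GRF7OE). Members were the genes of the deposited table whose best Swiss-Prot hit has MYB or Myb in its primary name, which gave 111 of 35677 genes. Both libraries came from Indica Group rice seedlings grown to tillering, and the title of the GRF7OE library ends in 1 without saying whether that counts lines or samples. The labels give neither the promoter of the transgene nor the number of plants behind a library. With a single library on each side, the differences could not be tested against replicates. In bulk RNA of seedlings, fewer cells of a type and less RNA per cell cannot be told apart.

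About 17021467 reads were assigned to genes in GRF7OE and 16824988 in WT. OsGRF7 stood at 70.7 FPKM in GRF7OE against 5.10 in WT, so the label of the overexpressing library held. FPKM relates a gene's reads to its transcript length and to all mapped reads, and GRF7OE is named first throughout. Of 18 chlorophyll a-b binding protein genes, markers of leaf mesophyll, 13 exceeded 100 FPKM in both libraries. The 15 that were expressed all stood higher in GRF7OE, with a median log2 ratio of 0.34, and their part in the results below was not tested. Square brackets after a fold hold its 95% exact (Clopper-Pearson) interval, made from read numbers and blind to any error but counting.

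MYB proteins bind DNA through repeats of a helix-turn-helix fold first known from the animal oncogene Myb. Plants have greatly enlarged the family. Most plant members carry a pair of repeats (R2R3) and control secondary walls, phenylpropanoids, responses to drought and pathogens, and cell identity, while members with 3 repeats act in the cell cycle. Single-repeat and GARP-type proteins are more distant relatives.

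The label was set beside annotations that the selection did not use. They may rest on the same protein similarity and are not taken as an independent check. A DNA-binding term was attached to 105 of the 111 genes, and 70 fell in the orthologous group KOG0048, that of the Myb superfamily. A further 14 genes, with best hits to APL or to At1g14600, fell in KOG1601, and 7 genes with best hits to MYB1R1 in KOG0724. In 3 cases the best hit was Target of Myb protein 1, an endosomal sorting protein that is no transcription factor, and the same 3 genes made up KOG1087. They form a group of their own but are kept in the counts over all members. Without them 72 genes were expressed, 42 above 0 and 30 below, with a summed FPKM of 1025 in GRF7OE and 1049 in WT. Names are those of the best hit, from Arabidopsis in 65 genes, from rice in 13 and from other species in 33. The similarity of the top aligned segment ranged from 52% to 100%, with a median of 82%, so a name gives kinship and not identity. Only 4 genes matched a rice protein at 100%. Encoded proteins had a median of 301 residues, and 8 of the 111 were under 100 residues.

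Of the 111 genes, 75 averaged 1 FPKM or more and are called expressed here. Among the other 36, 10 were listed at 0 in both libraries, 6 at 0 in 1 library and 20 above 0 in both, on at most 28 reads in a library. As a whole the family stood at nearly the same level in both libraries, with a summed FPKM of 1105 in GRF7OE and 1126 in WT. The 75 expressed members had a median level of 7.60 FPKM in GRF7OE and 7.22 in WT, against 10.3 in both libraries for all 23397 expressed genes.

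On the scale log2((GRF7OE FPKM + 1) / (WT FPKM + 1)), 1 of the 75 members was at least 2-fold higher and 2 were at least 2-fold lower. That is 4%, against 4.49% of all genes tested (3.24% higher and 1.25% lower), so the share past 2-fold was near the background. With a pseudocount of 0.1 in place of 1 the counts came to 4 higher and 4 lower, and from the deposited normalised counts to 3 and 3. At 1.5-fold the shares lay further apart. Past it were 26 of the 75 members, 17 higher and 9 lower, which is 34.7% beside a background of 14.0% (9.18% higher and 4.79% lower). The interval of the fold lay wholly above 1 in 28 members and wholly below 1 in 19. Those shares are 37.3% and 25.3%, beside 24.4% and 25.2% of all genes tested.

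The quartiles of the members' log2 ratios were -0.32 and 0.50, beside -0.22 and 0.23 for all genes. Their median was 0.11, where that of all genes was -0.01. Above 0 were 44 members and below 0 were 31, and the split came to 39 and 36 on an equal FPKM sum per library. That scaling also moved all genes down, to a median of -0.09, beside 0.03 for the members. For all genes tested, 48.3% were above 0 as deposited.

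**Figure D1:**
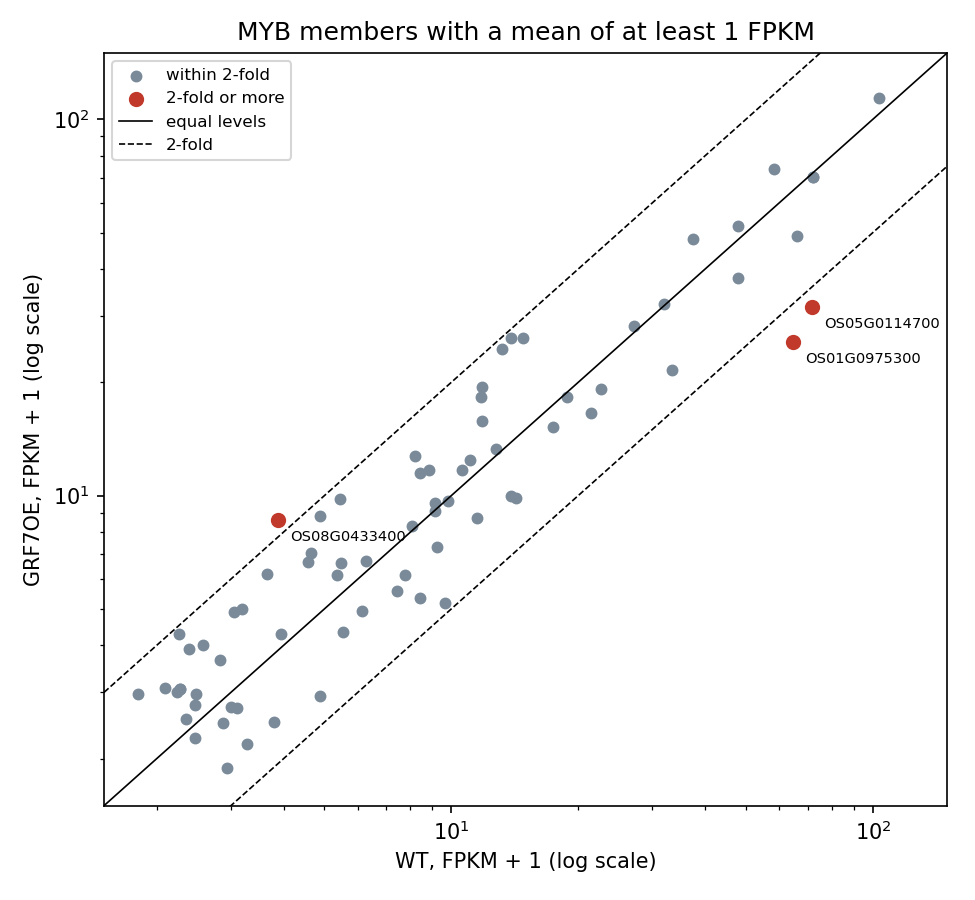
Level of each of the 75 expressed MYB members, with WT on the x axis and GRF7OE on the y axis, both as FPKM + 1 on log scales and 1 library each. The solid line marks equal levels and the dashed lines 2-fold, and 3 members (red) lie at or beyond 2-fold, 2 of them lower in GRF7OE at high WT levels.

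The 2 lower members were among the most abundant MYB genes of WT. OS01G0975300, with a best hit to MYB59, stood at 24.6 FPKM in GRF7OE and 63.6 FPKM in WT. It was 2.59-fold lower [2.37 to 2.83], on 690 reads against 1782. OS05G0114700, with a best hit to the rice protein MYBAS1, stood at 30.8 FPKM against 70.5 FPKM, 2.29-fold lower [2.14 to 2.46]. Its rank among all genes went from 1933 in WT to 4876 in GRF7OE, and that of OS01G0975300 from 2143 to 6052. The authors' deposited table calls both significant, and those calls compare the 2 libraries, not the conditions. MYB59 and MYB48 are close Arabidopsis relatives whose transcripts are alternatively spliced, and the rice MYBAS proteins belong to the same group.

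No other member with a best hit in that group was 2-fold apart on the log2 scale. The group was put together after the values were seen. MYBAS2 (OS12G0567300, similarity 100%) was at 7.72 FPKM against 10.5 in WT, 1.36-fold lower [1.12 to 1.65]. A gene with a best hit to MYB48 (OS02G0618400) was at 1.49 FPKM against 1.87, within counting error. OS11G0700500 matched MYBAS1 at 100%, whereas OS05G0114700 matched it at 87% and encodes a listed protein of only 93 residues. The KEGG column nevertheless gives the name MYBAS1 to OS05G0114700. OS11G0700500 stood at 8.12 FPKM against 8.15, a fold of 0.997 [0.823 to 1.21]. All 5 expressed genes of the group had a ratio below 0, with OS11G0700500 turning above 0 when the median ratio of all genes was scaled to 1 or the normalised counts were used. A second MYB59-type gene, OS04G0508500, was below the filter, at 0.388 FPKM on 9 reads against 1.08 FPKM on 26 reads.

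The member past 2-fold on the higher side was OS08G0433400, which the KEGG column names OsMYB106. Its best hit was rice Myb4, a factor known for cold tolerance, at a similarity of 89%, and its listed protein has 88 residues. It stood at 7.60 FPKM in GRF7OE and 2.88 FPKM in WT, 2.64-fold higher [2.11 to 3.32], on 292 reads against 108. The authors' deposited table calls it significant, which makes 3 such calls among the 111 members beside a background of 1.18% of all genes. Of the 3 genes past 2-fold, 2 thus have a listed protein of under 100 residues. Rice Myb4 itself (OS04G0517100, similarity 100%) stood at 31.2 FPKM against 31.0, a fold of 1.01 [0.921 to 1.10]. Another Myb4-type gene, OS10G0478300, was at 1.18 FPKM against 2.28 in WT, 1.93-fold lower [1.12 to 3.42], on 21 reads against 43. The last of the expressed ones, OS02G0624300, was within counting error at 5.17 FPKM against 6.75.

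Members with names tied to secondary walls stood mostly higher in GRF7OE. MYB46 is a master activator of secondary wall synthesis in Arabidopsis, and MYB86 is a relative of MYB61, which also acts in walls. Of 8 such genes 7 were expressed, 6 of them MYB86-type, and 6 of the 7 had a ratio above 0. That is 85.7%, beside 48.3% of all genes tested. None of the 7 was 2-fold higher on the log2 scale, and the median log2 ratio was 0.64, where all genes had -0.01.

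OS05G0140100 stood at 23.6 FPKM in GRF7OE and 12.2 FPKM in WT, 1.94-fold higher [1.76 to 2.14], on 1185 reads against 614. OS01G0285300 was close to it, at 25.2 FPKM against 13.8 and 1.83-fold higher [1.64 to 2.04]. Both encode proteins of similar length, 427 and 428 residues, with a similarity to MYB86 of 96% and 97%. OS03G0371800 was at 7.82 FPKM against 3.88, a plain ratio of 2.01 [1.47 to 2.78], and its log2 ratio with the pseudocount was 0.85. OS08G0151300 was at 3.99 FPKM against 2.20 in WT, 1.82-fold higher [1.34 to 2.47].

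The exception was OS02G0641300, a MYB86-type gene with a listed protein of 75 residues. It stood at 8.97 FPKM in GRF7OE and 12.8 FPKM in WT, 1.43-fold lower [1.20 to 1.71]. The MYB46-type gene, OS12G0515300, was lowly expressed at 2.06 FPKM against 1.28. Its fold of 1.61 had an interval from 0.826 to 3.23, so no difference was detectable on its 25 and 16 reads. The same held for OS07G0497500, at 1.54 FPKM against 1.35.

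The expressed members with names tied to phenylpropanoid and flavonoid control all had a ratio above 0. Maize P activates phlobaphene pigment synthesis, Arabidopsis MYB4 represses phenylpropanoid genes, and snapdragon Myb-related protein 308 represses lignin and phenolic acid synthesis when overproduced. Of 11 such genes 7 were expressed, none 2-fold apart. Their median log2 ratio was 0.34, and all 7 stayed above 0 under each scaling, beside 48.3% of all genes tested as deposited. In 5 of the 7 the interval of the fold lay above 1, as it did in 24.4% of all genes tested.

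The most abundant MYB gene of both libraries was in this group. OS05G0429900, with a best hit to maize Zm38, stood at 113 FPKM in GRF7OE and 103 FPKM in WT, a fold of 1.10 [1.02 to 1.19]. OS01G0874300, of the Myb-related protein 330 type, was at 72.7 FPKM against 57.4 in WT, 1.27-fold higher [1.15 to 1.40]. OS09G0538400, of the Myb-related protein 308 type, was at 47.0 FPKM against 36.4 in WT, 1.29-fold higher [1.17 to 1.43]. These 3 abundant genes thus differed little.

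The larger ratios of the group came from its lower members. OS04G0594100, of the maize Zm1 type, was at 3.01 FPKM against 1.58 in WT, 1.90-fold higher [1.34 to 2.73]. OS01G0305900, of the maize P type, was at 6.03 FPKM against 3.64 in WT, 1.65-fold higher [1.28 to 2.14]. The MYB4 repressor type, OS01G0127450, was at 1.77 FPKM against 1.46 on 13 and 11 reads, where a fold of 1.21 had an interval from 0.501 to 2.99. Within counting error was also OS11G0180900, a second gene of the 330 type, at 5.62 FPKM against 4.49.

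**Figure D2:**
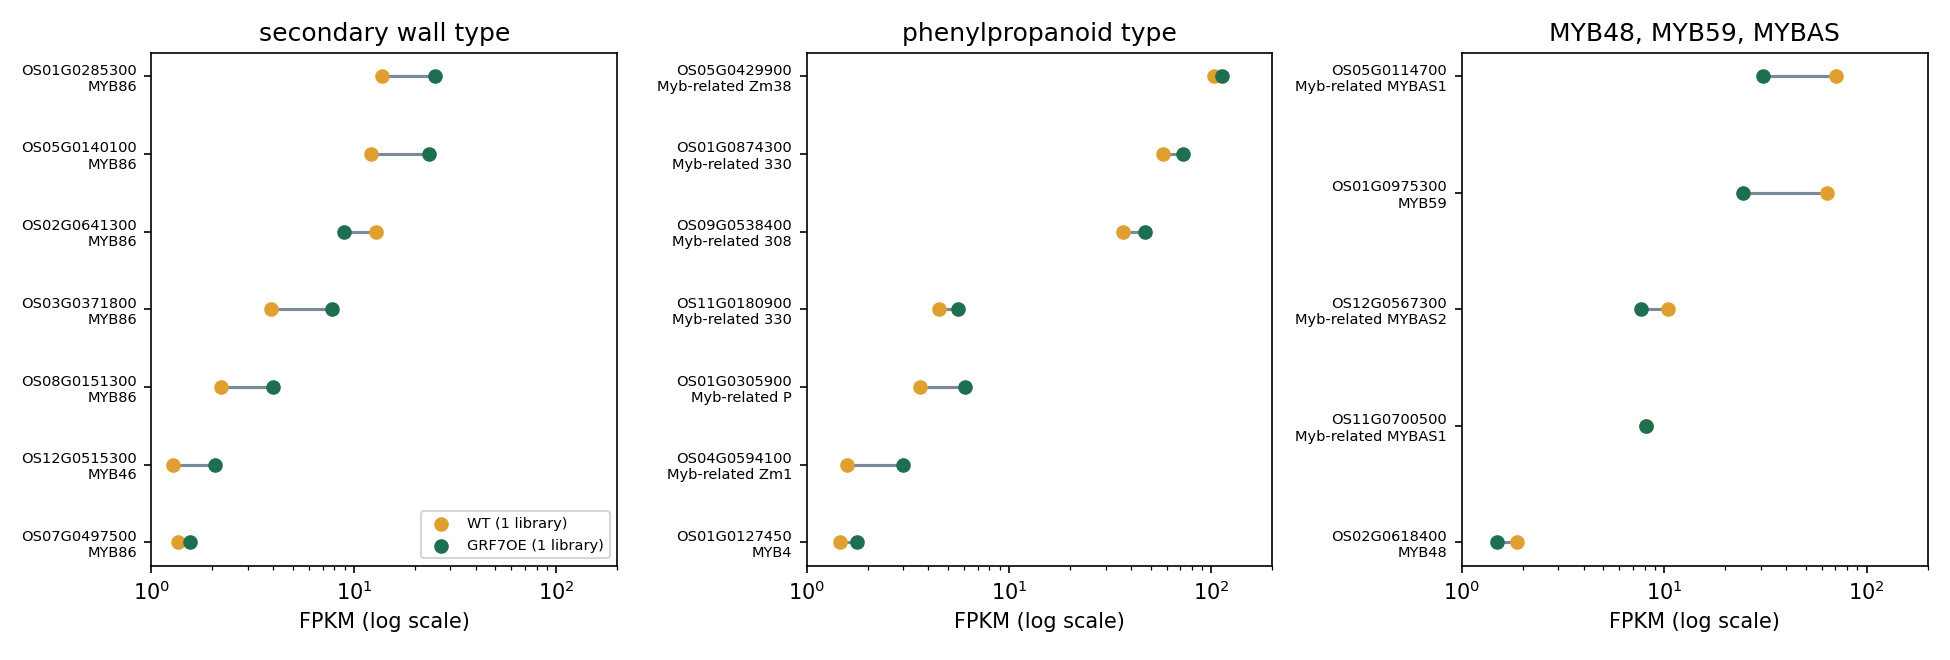
FPKM in WT (orange) and GRF7OE (green), 1 library each, on log axes, for the expressed genes of the secondary wall names, the phenylpropanoid names and the MYB48, MYB59 and MYBAS names. In the left panel 6 of 7 genes and in the middle panel all 7 are higher in GRF7OE, and in the right panel the 2 most abundant genes are lower, from 70.5 to 30.8 and from 63.6 to 24.6 FPKM.

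The known target pathways of these MYB groups differed both ways. Of 82 secondary wall and lignin genes (secondary wall cellulose synthases, monolignol enzymes and their best-hit relatives, and secondary wall NAC factors), 57 were expressed. Past 2-fold higher were 4 and past 2-fold lower 0, or 7.02% beside 4.49% of all genes tested. Above 0 were 35, or 61.4% beside 48.3%, with a median log2 ratio of 0.16. On an equal sum per library the split came to 30 above and 27 below, with a median of 0.08 beside -0.09 for all genes. A cinnamoyl-CoA reductase-type gene, OS09G0262000, stood at 10.9 FPKM against 1.87 in WT, 5.83-fold higher [4.04 to 8.64]. Phenylalanine ammonia-lyase makes the entry step of the pathway, and its most abundant gene, OS02G0626100, stood lower, at 1104 FPKM in GRF7OE and 1452 FPKM in WT, 1.32-fold [1.30 to 1.33]. A minor gene of that enzyme, OS04G0518400, was at 11.3 FPKM against 4.48 in WT, 2.53-fold higher [2.11 to 3.03]. Cinnamyl alcohol dehydrogenase 2 (OS02G0187800), which makes monolignols, was at 147 FPKM against 71.5 in WT, 2.06-fold higher [1.93 to 2.19]. Also past 2-fold was OS04G0229100, named as probable cinnamyl alcohol dehydrogenase 6, at 12.9 FPKM against 5.49. NAC factors act upstream of these MYBs in Arabidopsis. OS08G0103900, of the NAC 7 type, was at 4.29 FPKM against 7.05 in WT, 1.64-fold lower [1.30 to 2.08], and OS06G0131700, of the NAC 43 type, at 7.19 FPKM against 6.88, within counting error.

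Of 48 flavonoid and anthocyanin genes 20 were expressed, 12 above 0 and 8 below, with a median log2 ratio of 0.21. Above 0 were thus 60%, beside 48.3% of all genes tested. Past 2-fold higher were 2 and past 2-fold lower was 1, or 15% of these 20 genes beside 4.49% of all genes tested. An anthocyanidin reductase-type gene, OS04G0630300, stood at 36.8 FPKM against 10.8 in WT, 3.40-fold higher [2.90 to 4.0]. OS12G0115700, a chalcone isomerase-type gene, was at 30.4 FPKM against 12.5 in WT, 2.44-fold higher [2.15 to 2.78]. A naringenin dioxygenase-type gene, OS09G0570800, stood at 0.819 FPKM against 3.18 in WT, 3.89-fold lower [2.04 to 8.03].

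GAMYB-type genes were mostly near 0 in these seedlings. GAMYB is a gibberellin-induced activator of alpha-amylase genes in the cereal aleurone and acts in anthers. GAMYB itself (OS01G0812000, similarity 100%) had 14 reads in GRF7OE and 28 in WT, 0.306 FPKM against 0.639. That is 2.09-fold lower [1.06 to 4.30], below the filter on low values. Of 5 GAMYB-type genes only OS06G0605750 reached the mean of 1 FPKM, at 7.30 FPKM against 7.05, within counting error. Of 14 alpha-amylase and gibberellin signalling genes 7 were expressed, 2 above 0 and 5 below. That puts 28.6% above 0, beside 48.3% of all genes tested. The gibberellin receptor type GID1C (OS07G0606800) stood at 25.5 FPKM against 11.1 in WT, 2.29-fold higher [1.83 to 2.88]. It was the 1 gene of the list past 2-fold, or 14.3% of the 7 expressed beside 4.49% of all genes tested. The other genes with a best hit to a GID1 receptor went either way, and such a hit does not make a gene a receptor. OS05G0407500 was at 33.7 FPKM against 47.2 in WT, 1.40-fold lower [1.30 to 1.51], and OS11G0240600 at 43 FPKM against 33.6 in WT, 1.28-fold higher [1.13 to 1.45].

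Members of the 3-repeat and animal type went both ways. In Arabidopsis 3R-type MYBs control genes of mitosis and cytokinesis. Of 7 genes 6 were expressed, 3 above 0 and 3 below, with a median log2 ratio of 0.02. On an equal sum per library that median came to -0.06, beside -0.09 for all genes. OS01G0229000 stood at 3.89 FPKM against 2.04 in WT, 1.90-fold higher [1.37 to 2.67]. OS12G0238000, the longest listed protein of the members at 845 residues, was at 2.07 FPKM against 1.27 in WT, 1.63-fold higher [1.27 to 2.10]. OS02G0271900, the most abundant of the type, was at 14.2 FPKM against 16.5 in WT, 1.16-fold lower [1.05 to 1.28]. OS01G0841500, OS05G0459000 and the Myb-related protein B type OS07G0627300 lay within counting error. Among 21 mitotic genes 14 were expressed, 12 of them above 0, or 85.7% beside 48.3% of all genes tested, with a median of 0.26. None was past 2-fold, beside 4.49% of all genes tested. On an equal sum per library 9 were above 0, with a median of 0.17 beside -0.09 for all genes. KNOLLE (OS03G0736500), a syntaxin of the cell plate, was at 31.8 FPKM against 16.1 in WT, 1.98-fold higher [1.71 to 2.29].

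**Figure D3:**
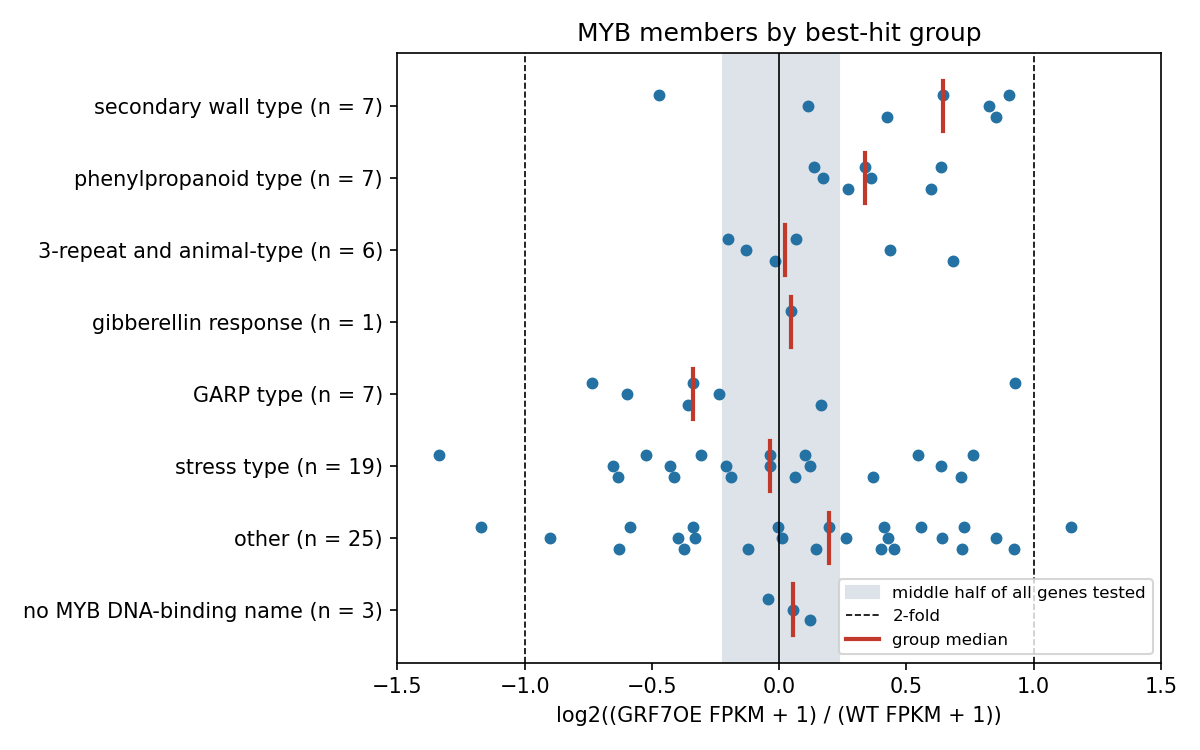
Log2 ratio of FPKM + 1, GRF7OE over WT, for the 75 expressed MYB members by group of best-hit names. Points are genes, red bars group medians, the shaded band the quartiles of all genes tested (-0.22 to 0.23) and the dashed lines 2-fold. Medians lie at 0.64 for secondary wall names, 0.34 for phenylpropanoid names and -0.34 for the row labelled GARP type. That row holds APL names only and does not stand for all GARP relatives. At1g14600 names, which share KOG1601 with most APL names, are plotted under other and had a median of 0.45.

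Stress-related names went both ways. Of 29 genes 19 were expressed, 8 with a ratio above 0 and 11 below, with the MYB59-type OS01G0975300 among them. The median log2 ratio was -0.04. An equal sum per library gave 7 and 12, with a median of -0.13 beside -0.09 for all genes. Arabidopsis MYB44 acts in abscisic acid responses and stomatal closure, MYB108 in resistance to the fungus Botrytis, and a further name of the group is a snapdragon Myb-related protein other than 308 and 330. A pair of abundant MYB44-type genes had intervals that included 1. OS02G0187700 stood at 69.2 FPKM against 71.1, and OS06G0637500 likewise at 69.2 FPKM against 71.1. OS09G0106700, of the same type, was at 27.2 FPKM against 26.1, within counting error too.

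Lower MYB44-type genes went either way. OS05G0350900 was at 2.92 FPKM against 1.39 in WT, 2.10-fold higher [1.04 to 4.45], on 26 reads against 13. OS01G0274800 was at 0.887 FPKM against 1.93 in WT, 2.18-fold lower [1.26 to 3.89], on 20 reads against 45. OS03G0720800 was at 4.59 FPKM against 6.44 in WT, 1.40-fold lower [1.11 to 1.77]. The most abundant MYB108-type gene, OS03G0315400, stood at 48.1 FPKM against 65.0 in WT, 1.35-fold lower [1.25 to 1.46]. Both other expressed genes of that type were within counting error.

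Of 6 expressed genes with that further snapdragon name, 4 had a ratio above 0. OS11G0558200 was at 5.17 FPKM against 2.65 in WT, 1.96-fold higher [1.49 to 2.59], and OS08G0437300 at 11.8 FPKM against 7.22 in WT, 1.63-fold higher [1.27 to 2.09]. On the lower side were OS07G0629000, at 4.35 FPKM against 7.41 and 1.70-fold lower [1.24 to 2.35], and OS07G0484700, at 8.88 FPKM against 13.2 and 1.49-fold lower [1.31 to 1.69]. Genes of this name thus differed in opposite directions beyond counting error.

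APL-type genes, of the GARP relatives, were mostly lower. APL sets phloem identity in Arabidopsis, and close relatives include the phosphate starvation regulators of the PHR family. Of 8 genes 7 were expressed, 5 below 0 and 2 above, with a median log2 ratio of -0.34. That puts 28.6% above 0, beside 48.3% of all genes tested. The lower direction did not extend to KOG1601, which joins At1g14600-type genes and the APL-type genes except OS06G0664800, which has no KOG. KOG1601 had 11 expressed genes, 7 above 0 and 4 below, with a median of 0.19. OS06G0664800 stood at 1.94 FPKM against 3.88 in WT, 2.01-fold lower [1.45 to 2.79], and OS02G0700300 at 1.5 FPKM against 2.79 in WT, 1.86-fold lower [1.25 to 2.80]. The more abundant OS08G0346400 was at 18.2 FPKM against 21.6 in WT, 1.19-fold lower [1.05 to 1.35]. OS05G0488600 stood higher, at 3.30 FPKM in GRF7OE and 1.26 FPKM in WT, 2.61-fold [1.82 to 3.81], on 114 reads against 42. Its log2 ratio with the pseudocount was 0.93. Of 53 phosphate starvation genes 28 were expressed, 21 above 0 and 7 below, with a median of 0.09. Above 0 were thus 75%, beside 48.3% of all genes tested. An equal sum per library gave 15 and 13, with a median of 0.02 beside -0.09 for all genes. The 1 gene of that list past 2-fold, or 3.57% beside 4.49% of all genes tested, was OS02G0678200. It encodes an SPX domain-containing membrane protein and was at 6.63 FPKM against 2.63 in WT, 2.52-fold higher [2.07 to 3.08]. Another SPX membrane protein gene, OS06G0129400, was at 8.15 FPKM against 13.4 in WT, 1.65-fold lower [1.45 to 1.87]. SPX domain-containing protein 1 (OS06G0603600), an inhibitor of the PHR factors, was at 16.1 FPKM against 13.9, a fold of 1.16 [1.01 to 1.34].

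The expressed At1g14600-type genes were all above 0 under each scaling, beside 48.3% of all genes tested as deposited. Of 7 genes 5 were expressed, with folds from 1.18 to 2.46. OS12G0105600, the most abundant, stood at 10.5 FPKM against 7.41 in WT, 1.41-fold higher [1.18 to 1.70]. OS02G0241200 was at 1.98 FPKM against 0.803 in WT, 2.46-fold higher [1.49 to 4.20], on 55 reads against 23. In OS06G0670300 and OS06G0543200 the interval included 1.

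The genes of the barley Hv33 type were also all higher, each beyond counting error. Over all genes tested the interval lay wholly above 1 in 24.4% and wholly below 1 in 25.2%. OS07G0634900 stood at 25.3 FPKM against 12.9 in WT, 1.97-fold higher [1.69 to 2.30]. OS05G0543600 was at 18.5 FPKM against 10.8 in WT, 1.71-fold higher [1.44 to 2.02]. OS01G0702700 was at 14.8 FPKM against 10.9 in WT, 1.36-fold higher [1.16 to 1.60].

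Single-repeat members differed in direction among themselves. MYB1R1 is a potato single-repeat factor linked to drought. Of 7 such genes 6 were expressed, 3 above 0 and 3 below. OS10G0561400, the most abundant, stood at 36.9 FPKM against 46.9 in WT, 1.27-fold lower [1.17 to 1.39]. OS08G0151000 was at 20.5 FPKM against 32.3 in WT, 1.57-fold lower [1.41 to 1.76]. OS01G0603300 stood higher, at 17.3 FPKM in GRF7OE and 10.8 FPKM in WT, 1.61-fold [1.36 to 1.91]. TCL2 is a small Arabidopsis protein that represses leaf hairs, and the TCL2-type gene OS01G0619900, with a listed protein of 47 residues, was at 4.17 FPKM against 8.65. It was 2.07-fold lower [1.64 to 2.63], and -0.90 on the log2 scale with the pseudocount.

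Of the remaining names, the MYB51 type OS02G0579300 stood at 8.80 FPKM against 4.44 in WT, 1.98-fold higher [1.32 to 3.04]. MYB51 controls indole glucosinolates in Arabidopsis. The MYB28 type OS04G0461000 and the MYB39 type OS06G0112700 were within counting error, on 35 reads at most. MYB98, which acts in the Arabidopsis female gametophyte, and MYB24, which acts in stamens, had no expressed relative. The Target of Myb protein 1 genes lay close to WT. OS02G0697300 stood at 51.1 FPKM against 46.9, a fold of 1.09 [1.02 to 1.17], and the other 2 were within counting error.

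**Figure D4:**
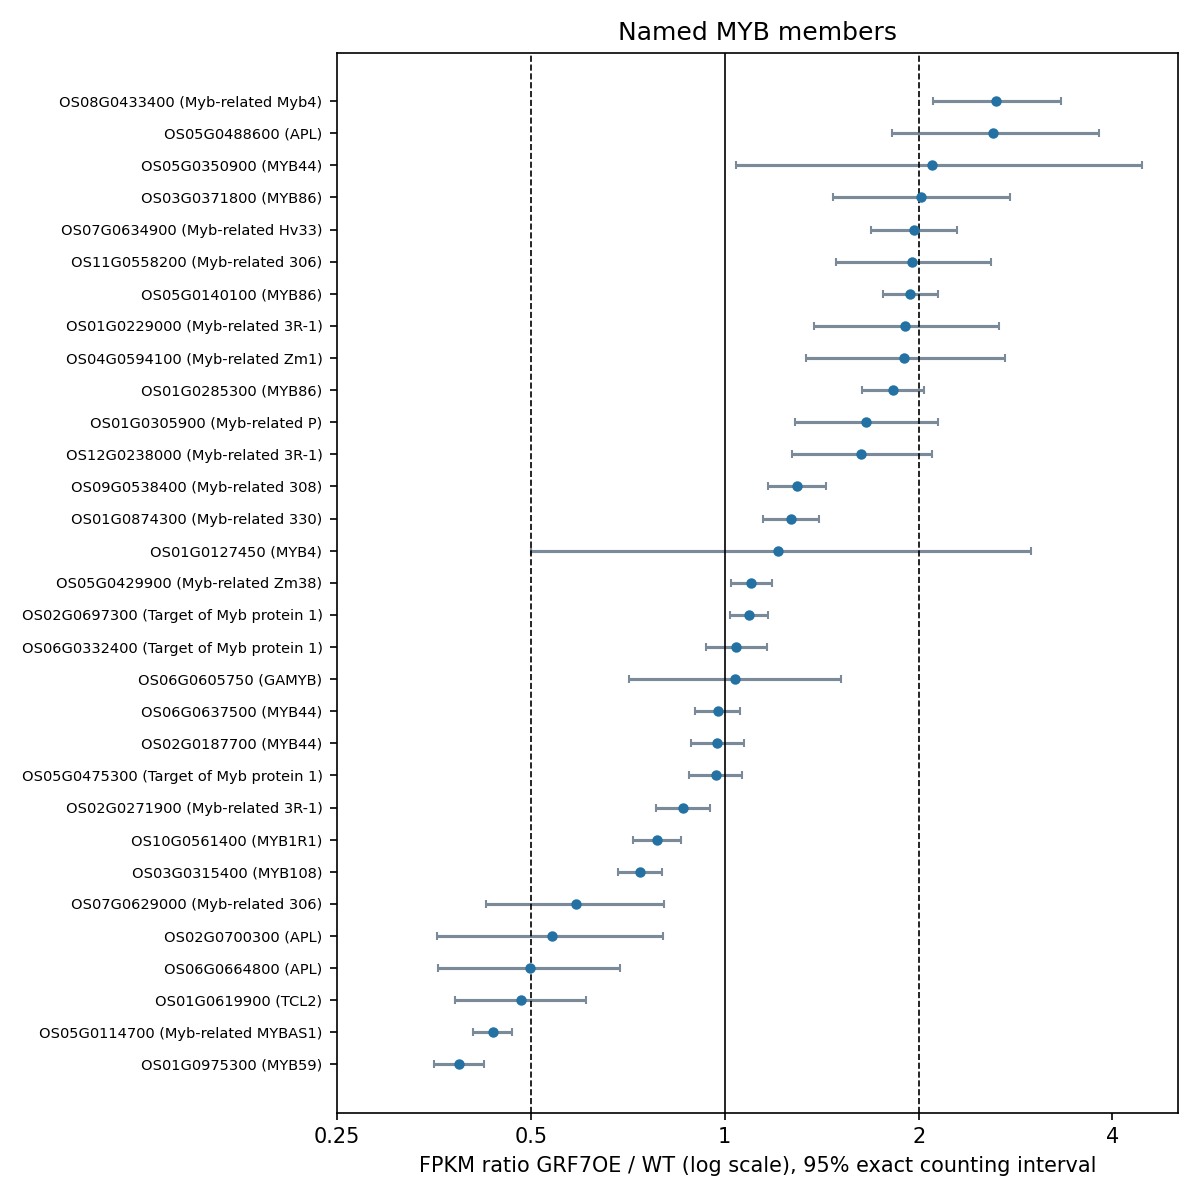
FPKM ratio of GRF7OE over WT on a log axis, with 95% exact counting intervals as bars, for 31 of the 32 members chosen by the naming rule, the expressed ones. OS01G0975300 and OS05G0114700 lie wholly below 0.5 and OS08G0433400 wholly above 2, and intervals of lowly expressed genes are wide.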

How the data were processed

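A single table of 35677 genes was analysed. FPKM values were used as the authors deposited them. The deposited count columns are a signal, reads divided by a size factor per library, in steps of 0.963 in GRF7OE and 0.954 in WT, from which reads were recovered. Bowtie and Cuffdiff are named, per the submitters' processing notes; the sources used here give neither versions nor a genome build. The deposited p-value and FDR columns compare the 2 libraries. Their log2 ratio columns were not used, the ratio being taken from FPKM here, nor was the direction column whose header names an RNAi line, per the file headers.

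Genes averaging 1 FPKM or more were described with a pseudocount of 1, and plain FPKM ratios were given 95% exact (Clopper-Pearson) intervals from the reads. Intervals cover counting error only. Groups of names, target lists and members were chosen with earlier results of these data known. The naming rule took members past 2-fold or called by the authors, the 10 most abundant, up to 3 per group, those next to 2-fold, GAMYB and the MYB4 type; every other member, and the list genes, were named after their values were seen. Rice Myb4 was kept apart from Arabidopsis MYB4. No sequences were used. The steps were tested on simulated data. Alternatives were pseudocounts of 0.1 and 0.5, other filters, scalings, thresholds and member sets. Scripts ran under Python 3.11.15 with pandas 2.3.3 and SciPy 1.17.1; Matplotlib 3.10.9 and NumPy 2.4.6 drew the figures.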

Additional observations from a re-analysis of the deposited data

How the results depend on the processing

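The count of 3 members past 2-fold, 1 higher and 2 lower, was unchanged with no filter on low values, at a mean of at least 5 FPKM, under both scalings, with MYB DNA-binding names only, with 1 entry per MSU identifier and among the authors' calls. A pseudocount of 0.1 gave 8 (4 higher, 4 lower). With a pseudocount of 0.5 it was 2 on the higher side. From the deposited normalised counts it was 6, of which 3 were higher. No share over all genes is given for those pseudocounts or for the normalised counts. At 1.5-fold it was 26 (17 higher and 9 lower), and at 3-fold it was 0 in both directions. The members' median log2 ratio of 0.11 stayed above 0, from 0.03 on an equal FPKM sum per library to 0.12 with a pseudocount of 0.1. That scaling took the median of all genes to -0.09. The FPKM ratio of each of the 32 named members stayed inside its counting interval under the normalised counts and both scalings. No paired analysis was possible because each group has 1 library. Depth limits the lowly expressed members, of which 5 expressed ones had under 20 reads in a library.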

Other observations

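Some members sit beside each other or in duplicated segments. OS08G0151000 and OS08G0151300 have successive MSU locus numbers and differed in opposite directions, the first at 20.5 FPKM in GRF7OE against 32.3 in WT and the second at 3.99 against 2.20. OS02G0641300 and OS02G0641900, also near each other, were both lower in GRF7OE, at 8.97 FPKM against 12.8 and at 0.329 against 0.671, the latter on 6 reads against 13. The ends of rice chromosomes 11 and 12 share a recent duplication, and reads of near-identical copies there cannot be assigned with certainty. The genes OS11G0128500 and OS12G0125000, of the snapdragon name placed with the stress group, stood at 5.67 FPKM against 3.57 and at 5.72 against 5.27. Of the At1g14600-type genes near the same ends, OS11G0106100 is listed at 0 in both libraries, while OS12G0105600 was at 10.5 FPKM against 7.41.

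Of the members below a mean of 1 FPKM, 6 were seen in 1 library only, on at most 7 reads. OS04G0593200, of the MYB39 type, had 7 reads in GRF7OE and 0 in WT, and OS02G0168200, of the At1g14600 type, 4 against 0. OS03G0236300, with a best hit to the animal activator Myb, had 0 reads against 4. Of the 20 seen in both libraries, OS07G0688200 and OS01G0128000, of the MYB108 type, had 10 reads against 26 and 5 against 19. Others went the other way, such as OS05G0589400, of the MYB1R1 type, with 8 reads against 3. OS04G0470600, of the maize P type, had 11 reads against 6.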
